A study of Mus musculus with 4 samples.

Results

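The genes of the platelet-derived growth factor (PDGF) system were followed in NSCL61 and NSCL61-sox11: the 4 ligand genes Pdgfa, Pdgfb, Pdgfc and Pdgfd and the 2 receptor genes Pdgfra and Pdgfrb. All 14 probe sets that the platform annotation assigns to 1 of these genes alone were taken, out of 34945 probe sets that name 18193 genes. A probe set is a group of short probes on the array that report on 1 transcript region. NSCL61 is a line of p53-/- neural stem cells of the C57BL/6 strain, derived from mouse telencephalon of embryonic day 14.5 and described in the labels as resembling glioma-initiating cells. NSCL61-sox11 is its derivative and carries the same p53-/- genotype, with expression of the transcription factor gene Sox11 added. The submitters state that it no longer formed tumours after transplantation. Neither the promoter that drives Sox11 nor the number of clones behind the derivative is given in the sources used here. Both lines were grown as floating spheres in the same serum-free medium, which contained PDGF at 10 ng/ml, basic fibroblast growth factor, insulin and forskolin, per the labels. The chain type of the added PDGF is not given there, so endogenous ligand transcripts were measured in cells that also received the protein from outside.

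PDGFs are secreted as dimers. The A and B chains are cut by furin-like proteases before secretion, whereas the C and D chains leave the cell with a CUB domain that must be cleaved off before they can bind. The alpha receptor, encoded by Pdgfra, binds A, B and C chains, and the beta receptor, encoded by Pdgfrb, binds B and D chains. Both are tyrosine kinases that pair on ligand binding and recruit phosphatidylinositol 3-kinase, phospholipase C gamma and the adaptors of the Ras pathway. In the brain, Pdgfra is best known as a marker of oligodendrocyte progenitors and Pdgfrb as a marker of pericytes, and ligand overproduction drives glioma in mouse models.

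Expression was measured on 1 Affymetrix array per sample, with 2 arrays per line. The deposited values are log2 levels. A level depends on how well a probe set hybridises, so levels are compared between lines on the same probe set and never between genes. Differences were tested with limma over the 27022 probe sets with the highest mean level (60% of the total, with means of at least 5.15) and called at a Benjamini-Hochberg adjusted p under 0.05. Where a gene has several tested probe sets, the brightest stands for it. Arrays of the same line were closer (Pearson's r of 0.9937 and 0.9954 across tested probe sets) than arrays of different lines (0.9679 to 0.972). Sox11 itself read 5.09 and 4.82 on the NSCL61 arrays and 7.74 and 7.97 on the NSCL61-sox11 arrays; its level was thus higher in the line labelled as expressing it. In total 2510 of 13084 tested genes were called, a share of 19.2%, with 1308 upwards (10%) and 1202 downwards (9.19%), and 17.3% of probe sets were called. Without NSCL61 array 1 these counts were 533 and 375 genes, and without NSCL61 array 2 they were 637 and 307. Scaling to the spiked poly-A controls shifted every log2 difference by -0.404, and 303 genes were then called upwards and 1051 downwards. Scaling to the hybridisation controls shifted them by -0.217 and gave 702 and 2336. The median log2 difference of all tested genes was -0.02 on the deposited scale, to which all directions below refer. The labels do not say whether the 2 arrays of each line represent separate cultures. The p-values therefore cover no more than array-to-array spread, which may be technical.

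Both receptor genes and the ligand gene Pdgfb rose in NSCL61-sox11, the ligand gene Pdgfa fell, and the ligand gene Pdgfc did not pass the test. Of the 5 genes with a tested probe set, 4 were thus called, 3 upwards and 1 downwards, with a median log2 difference of 1.23. Among the 11 tested probe sets, 6 rose (background 8.99%), 2 fell (background 8.32%) and 3 did not pass. The arrays of the lines did not overlap on any of these 11, but this holds for 60.5% of all tested probe sets. Without the level filter it held for 13 of the 14, beside 52.1% of all. The 3 remaining probe sets, all of Pdgfd, lay below the level filter.

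**Figure D1:**
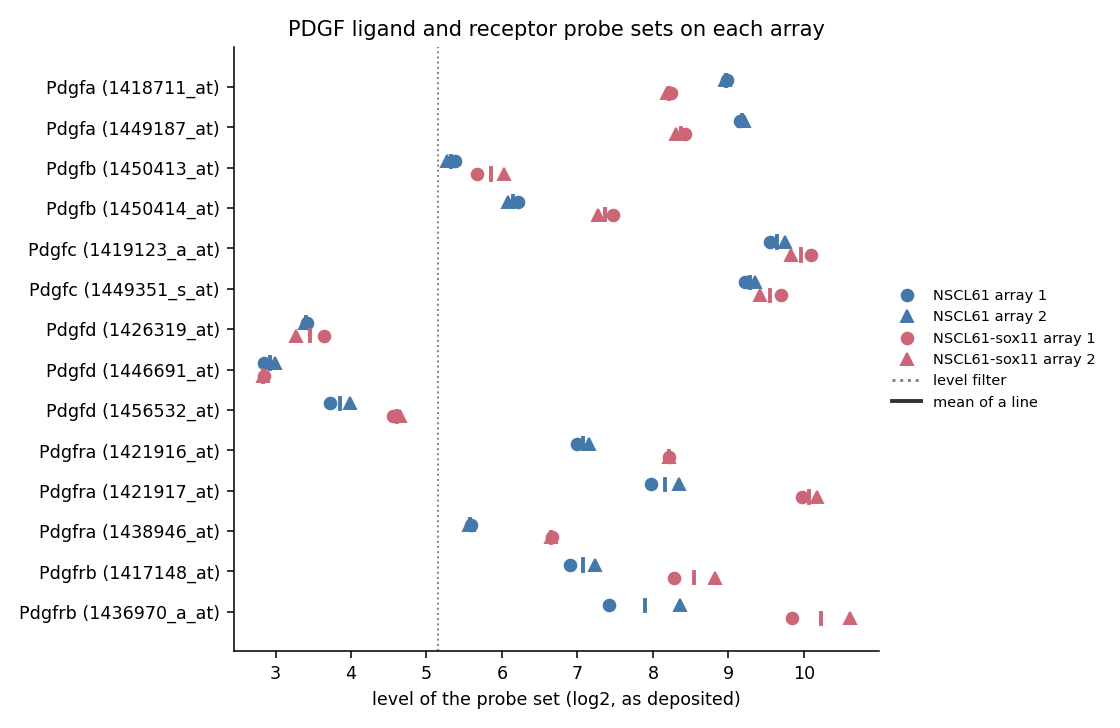
Level of every PDGF probe set (log2, horizontal axis) on each of the 4 arrays: blue for NSCL61, red for NSCL61-sox11, circles for array 1, triangles for array 2, short bars for the mean of a line. The receptor probe sets lie to the right in NSCL61-sox11 and those of Pdgfa to the left; the 3 Pdgfd probe sets lie below the dotted level filter at 5.15.

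Pdgfra, the alpha receptor gene, rose on each of its 3 probe sets. On the representative one (1421917_at) the NSCL61 arrays read 7.97 and 8.35 and the NSCL61-sox11 arrays 9.97 and 10.18. The lines were thus well separated, by more than the gap within either. The means were 8.16 ± 0.26 and 10.07 ± 0.15 (SD, n = 2 each), a 3.76-fold rise with a log2 difference of 1.91 (SE 0.14, limma adjusted p = 0.00065). The other probe sets gave smaller values. On 1421916_at the arrays read 6.99 and 7.15 against 8.22 and 8.21, a 2.21-fold rise (limma adjusted p = 0.0011). On 1438946_at they read 5.59 and 5.56 against 6.66 and 6.65, a 2.11-fold rise (limma adjusted p = 0.0012). The probe sets thus share their direction, and the size of the rise depends on which one is read: the mean of the 3 gave a log2 difference of 1.38. With poly-A scaling the 2 smaller rises were 0.74 and 0.67 and lost their calls (limma adjusted p = 0.10 and 0.13), while the representative probe set kept its call at 1.51. In bulk samples such as these, more cells of a type and more RNA per cell cannot be told apart.

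Pdgfrb, the beta receptor gene, had the largest difference among the members, 5.04-fold, but also the widest spread between arrays of a line. On its representative probe set (1436970_a_at) the NSCL61 arrays read 7.42 and 8.36 and the NSCL61-sox11 arrays 9.84 and 10.60. Array 2 was the higher one in both lines, and the gap of 0.94 between the NSCL61 arrays was wider than that of 99.8% of tested probe sets. The means were 7.89 ± 0.66 and 10.22 ± 0.54 (SD, n = 2 each), a log2 difference of 2.33 (SE 0.35, limma adjusted p = 0.0076). Leaving out 1 array at a time moved this between 1.87 and 2.80, with the call kept each time. The other probe set (1417148_at) read 6.90 and 7.24 against 8.28 and 8.82, a 2.79-fold rise (log2 difference 1.48, SE 0.20, limma adjusted p = 0.0053), and array 2 was again the higher one in both lines. Whether the receptor genes rose by different amounts cannot be settled with 2 arrays per line, since no outcome of the exact permutation test could pass the threshold. Taken on each array, Pdgfrb minus Pdgfra was -0.55 and 0.01 in NSCL61 and -0.12 and 0.43 in NSCL61-sox11, and the lines overlap on these representative probe sets. The difference in change was 0.42 on the log2 scale (two-sided exact permutation p = 0.667, n = 2 arrays each, where 0.333 is the smallest p this design allows). With the mean of all tested probe sets of each gene it was 0.31 and 0.78 against 0.78 and 1.37. There the lines did not overlap, though they came close, and the difference was 0.53 (two-sided exact permutation p = 0.333, n = 2 arrays each).

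**Figure D2:**
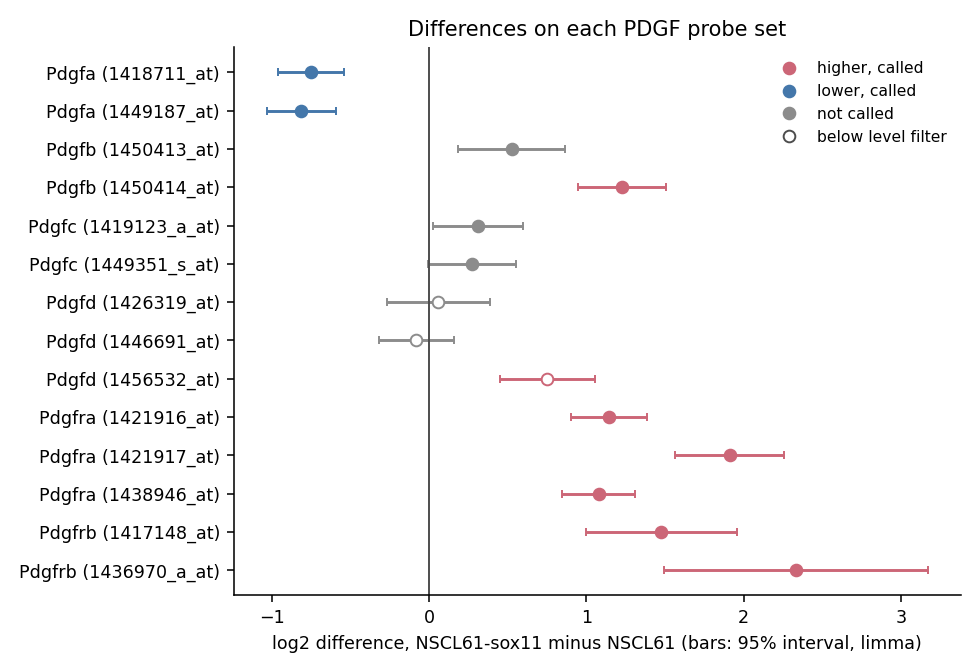
Log2 difference between the lines (NSCL61-sox11 minus NSCL61, horizontal axis) on every PDGF probe set, with its 95% interval from limma; red and blue points were called, grey ones were not, and open points lie below the level filter. All 5 receptor probe sets lie between 1.08 and 2.33, both Pdgfa probe sets at -0.75 and -0.81, and both Pdgfc intervals have their lower end near 0.

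Pdgfa, which encodes the A chain and so a ligand of the alpha receptor only, was the member that fell. On its representative probe set (1449187_at) the NSCL61 arrays read 9.15 and 9.21 and the NSCL61-sox11 arrays 8.43 and 8.31. The arrays of each line lay close together and the lines far apart. The means were 9.18 ± 0.04 and 8.37 ± 0.08 (SD, n = 2 each), a 1.76-fold fall with a log2 difference of -0.81 (SE 0.09, limma adjusted p = 0.0028). The other probe set (1418711_at) read 8.99 and 8.95 against 8.24 and 8.19, a 1.69-fold fall (limma adjusted p = 0.0031). The probe sets of Pdgfa thus gave nearly the same size of fall. Leaving out 1 array at a time gave log2 differences between -0.87 and -0.75, and the scaling to poly-A controls gave -1.22, with the call kept in each case.

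Pdgfb encodes the B chain, which binds both receptors. On its representative probe set (1450414_at) the NSCL61 arrays read 6.21 and 6.08 and the NSCL61-sox11 arrays 7.47 and 7.27. The lines were thus more than 1 log2 unit apart. The means were 6.14 ± 0.09 and 7.37 ± 0.14 (SD, n = 2 each), a 2.34-fold rise (log2 difference 1.23, SE 0.12, limma adjusted p = 0.0014). The other probe set (1450413_at) lay close to the level filter, at 5.38 and 5.27 against 5.67 and 6.02, and missed the threshold (log2 difference 0.52, limma adjusted p = 0.052). Without NSCL61-sox11 array 1 it was called at 0.70 (limma adjusted p = 0.017). The rise on the representative probe set kept its call without any single array (1.13 to 1.33) but lost it with poly-A scaling (log2 difference 0.82, limma adjusted p = 0.070).

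Pdgfc encodes the C chain, a CUB domain ligand of the alpha receptor, and did not pass the test. Its representative probe set (1419123_a_at) read 9.55 and 9.75 in NSCL61 and 10.09 and 9.83 in NSCL61-sox11. The gap between the lines, from 9.75 to 9.83, was smaller than the gap within either of them. The log2 difference was 0.31 (95% interval 0.03 to 0.60, limma adjusted p = 0.13), and on the other probe set (1449351_s_at) it was 0.27 (limma adjusted p = 0.17). Leaving out NSCL61-sox11 array 2 brought the former to 0.44 (limma adjusted p = 0.033), and poly-A scaling turned it to -0.093, so its direction is not settled.

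Pdgfd encodes the D chain, a CUB domain ligand of the beta receptor, and all of its 3 probe sets lay below the level of 5.15. In the fit of all 45037 probe sets, where 10.1% were called, 1456532_at read 3.72 and 3.99 in NSCL61 and 4.56 and 4.65 in NSCL61-sox11. This was a log2 difference of 0.75 (SE 0.13, limma adjusted p = 0.011), whose size is uncertain at such levels. The others differed by 0.06 and -0.08 (limma adjusted p = 0.87 and 0.71), and the mean of the 3 by 0.24 (limma adjusted p = 0.17). Without NSCL61 array 1 the difference on 1456532_at was 0.62 and its call was lost (limma adjusted p = 0.11), as it was with poly-A scaling (0.35, limma adjusted p = 0.32).

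**Figure D3:**
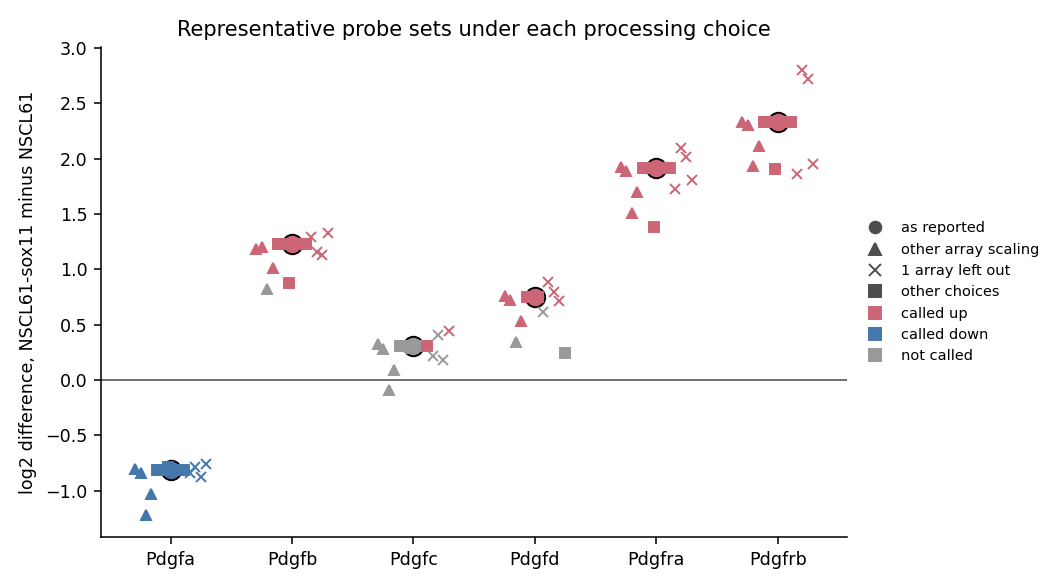
Log2 difference of each PDGF gene on its representative probe set (vertical axis, NSCL61-sox11 minus NSCL61) as reported (large circles) and under every alternative, with colour for the call and grey for no call; Pdgfd is from the fit of all probe sets. Pdgfa stays below 0 and Pdgfra and Pdgfrb above 1 throughout, whereas Pdgfc lies below 0 with poly-A scaling.

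The promoter windows of Pdgfra, which rose, and of Pdgfa, which fell, are shown as a description. SOX factors have an HMG domain that binds short cores such as ACAAAG and ACAATG. Both lines had transcripts of SOX genes other than Sox11. Sox2 had means of 10.52 in NSCL61 and 8.83 in NSCL61-sox11, and Sox9 had means of 8.80 and 8.59. Whether a SOX factor acts on these genes was not tested. RefSeq windows of 250 bases before to 50 after a transcript start (GRCm38.p6) were examined for 4 of the 6 members. These were Pdgfa, Pdgfc, Pdgfd and Pdgfra. Windows of Pdgfb and Pdgfrb were not examined, so nothing can be said here about motifs in them. The 250 bases before the start are printed, 5′ to 3′ on the gene's strand, for Pdgfra (chr5:75152001-75152250, plus strand) and for both starts of Pdgfa (chr5:138994282-138994531 and chr5:138994945-138995194, minus strand). Capitals mark ACAAAG or ACAATG, the GC box GGGCGG or the TATA box TATAAA on either strand; the matches do not overlap each other.
Pdgfra: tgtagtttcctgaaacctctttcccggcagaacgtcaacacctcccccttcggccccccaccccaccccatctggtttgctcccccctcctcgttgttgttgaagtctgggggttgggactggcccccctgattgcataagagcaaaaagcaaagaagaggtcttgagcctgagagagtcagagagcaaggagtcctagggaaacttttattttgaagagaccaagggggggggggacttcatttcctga
Pdgfa, window at 138994282: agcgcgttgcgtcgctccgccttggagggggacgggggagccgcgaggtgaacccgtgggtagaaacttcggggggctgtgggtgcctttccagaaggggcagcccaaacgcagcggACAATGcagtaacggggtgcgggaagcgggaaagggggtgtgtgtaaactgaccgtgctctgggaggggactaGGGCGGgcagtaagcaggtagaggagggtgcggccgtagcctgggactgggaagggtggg
Pdgfa, window at 138994945: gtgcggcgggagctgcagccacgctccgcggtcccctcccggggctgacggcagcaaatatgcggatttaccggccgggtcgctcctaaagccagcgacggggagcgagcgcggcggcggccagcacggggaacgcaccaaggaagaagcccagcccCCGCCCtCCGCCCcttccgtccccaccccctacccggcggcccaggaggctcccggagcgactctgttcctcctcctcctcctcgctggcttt
The Pdgfra window held none of these 4 motifs. The Pdgfa window at 138994282 held ACAATG beginning 133 bases before the start and GGGCGG beginning 60 before it. The one at 138994945 held GGGCGG on the opposite strand 93 and 86 bases before the start. Among all 32851 windows of this length, 12.6% held ACAATG, 18.7% ACAAAG, 35.7% GGGCGG and 13.6% TATAAA on either strand. The G and C content of the whole windows was 51% for Pdgfra and 67% and 73.3% for Pdgfa, beside a median of 52.7%. The Pdgfc window held ACAAAG 168 bases before the start, and that of Pdgfd held it on the opposite strand 187 bases before. A match is a description of letters, not a binding site.

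None of the genes tested beside the receptors passed the test. Pdgfra lies on chromosome 5 of the mouse gene table (GRCm38.p6) in a cluster with the receptor tyrosine kinase genes Kit and Kdr. Kdr, the VEGF receptor gene, read 6.29 and 5.93 in NSCL61 and 6.12 and 6.30 in NSCL61-sox11, with overlapping arrays and a log2 difference of 0.10 (limma adjusted p = 0.72). Kit lay below the level filter, with means of 4.84 and 4.74. Pdgfrb lies on chromosome 18 next to Csf1r, the receptor gene of macrophage colony-stimulating factor. Csf1r read 6.62 and 6.77 against 6.60 and 6.50, a log2 difference of -0.15 (limma adjusted p = 0.40). Of the 8 nearest tested genes of the receptors (2 on each side of each), limma called 0, with 1 at an unadjusted p under 0.05, and their log2 differences ran from -0.17 to 0.38. Around the 4 ligand genes 9 of 16 such genes were called, 7 upwards and 2 downwards (56.2%, beside 19.2% of all tested genes). Beside Pdgfa, the kinase gene Fam20c rose 2.14-fold (limma adjusted p = 0.0016) where Pdgfa fell. Beside Pdgfb, the polycomb gene Cbx7 rose 1.65-fold and the synaptic vesicle gene Syngr1 fell 2.07-fold. Beside Pdgfd, the caspase gene Casp12 rose 3.12-fold. Beside Pdgfc, the cathepsin gene Ctso rose 3.78-fold, from a mean of 4.85 to 6.77. Ctso is among the 9 called genes, and it passed the level filter only through NSCL61-sox11. Fam20c and Cbx7 lost their calls with poly-A scaling (limma adjusted p = 0.12 and 0.40). Whether the 8 and the 16 genes differ was not tested.

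**Figure D4:**
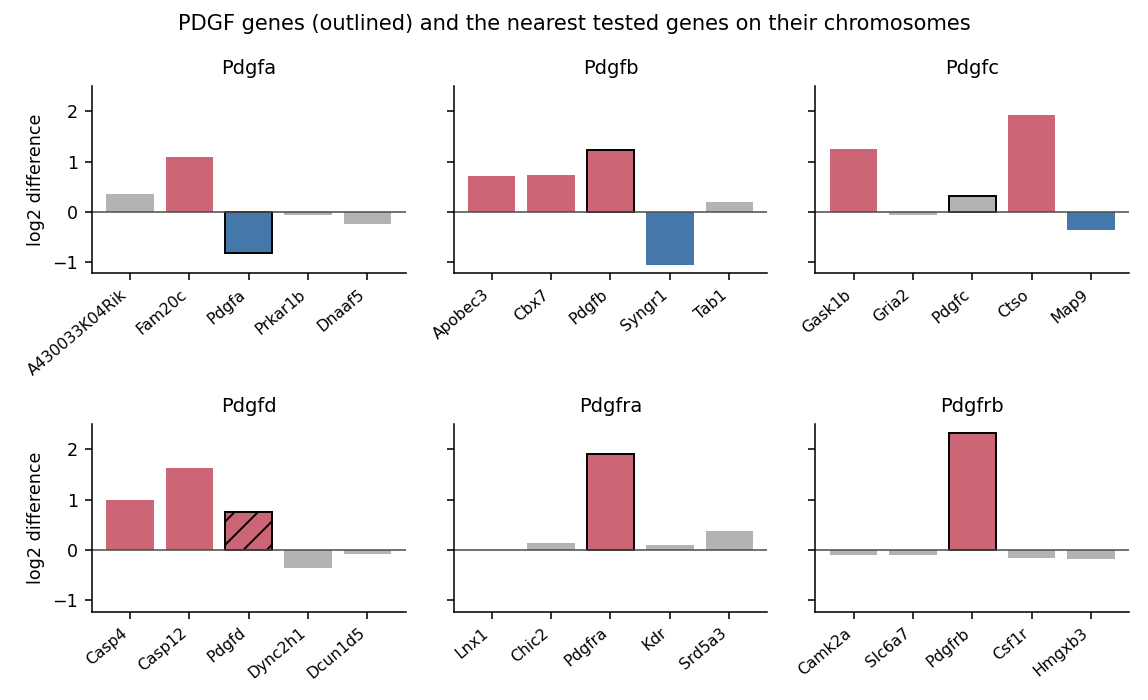
Log2 difference (NSCL61-sox11 minus NSCL61) of each PDGF gene (outlined) and of the 2 nearest tested genes on each side in chromosome order; red and blue bars were called, grey ones were not, and the hatched Pdgfd bar is from the fit of all probe sets. Of the 8 neighbours of Pdgfra and Pdgfrb shown, 0 were called, beside 19.2% of all tested genes.

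Genes whose 4-array profiles were nearest to those of the called members were taken by Euclidean distance after centring each profile on its own mean; with 4 arrays this mostly reflects the difference between the lines. Nearest to Pdgfra were Gas1, which encodes a co-receptor of Hedgehog proteins (distance 0.09 log2 units), the paired box gene Pax3 (0.10) and Rgs5, a regulator of G protein signalling known from pericytes (0.11). Nearest to Pdgfrb were the cytokine gene Il33 (0.19), the prostaglandin F receptor gene Ptgfr (0.20) and the matrix Gla protein gene Mgp (0.27). Each of these was, like Pdgfrb, higher on array 2 in both lines, an order that the choice by nearest profile favours. Il33 read 7.78 and 8.73 against 9.98 and 10.86. Without NSCL61 array 1 the call of Il33 was lost (limma adjusted p = 0.053). Nearest to Pdgfb were Nrg1 (neuregulin, 0.07), the sphingosine kinase gene Sphk1 (0.10) and the bicarbonate transporter gene Slc4a4 (0.10). Nearest to Pdgfa were 1700003F12Rik, Pacc1 and Nxpe3, at 0.040 to 0.051.

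Of the genes that act on PDGF ligands outside the cell, Nrp1, Nrp2 and Lrp1 rose on the deposited scale and kept no call with poly-A scaling. Of the 10 ligand activation and co-receptor genes tested, 3 were called upwards, 0 downwards and 7 not at all, with a median of 0.02 (30% called, against 19.2% of all genes, and 4 at an unadjusted p under 0.05). Nrp1, a co-receptor of PDGF and VEGF, rose from 9.04 and 8.74 to 9.70 and 9.63, or 1.71-fold (limma adjusted p = 0.0082). Its relative Nrp2 rose 1.68-fold (limma adjusted p = 0.0036). Lrp1, an endocytic receptor that associates with the beta receptor, rose 1.56-fold (limma adjusted p = 0.0076). Nrp1 lost its call without NSCL61 array 2 (limma adjusted p = 0.052) and Lrp1 without NSCL61 array 1 or 2 (limma adjusted p = 0.073 and 0.055). The furin gene Furin differed by 0.003, and Plat, which encodes the tissue plasminogen activator that frees PDGF-C, by -0.53 (limma adjusted p = 0.078).

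Relatives of the PDGF system were tested for comparison: the VEGF ligands and receptors, which share the ligand fold, and the class III receptor kinases Kit, Csf1r and Flt3 with their ligands. Of 13 tested, 4 rose, 1 fell and 8 did not pass (38.5% called, beside 19.2% of all genes), with a median of 0.10. The rises were in ligands. Vegfd rose 2.89-fold, from 6.09 and 6.85 to 7.83 and 8.18 (limma adjusted p = 0.011). Csf1, the ligand gene of Csf1r, rose 2.25-fold from 10.03 and 10.02 to 11.34 and 11.05 (limma adjusted p = 0.0013), while Il34, the other ligand gene of that receptor, fell 1.70-fold (limma adjusted p = 0.0039). Pgf, placental growth factor, rose 1.53-fold (limma adjusted p = 0.025). With poly-A scaling neither Csf1 (limma adjusted p = 0.057) nor Pgf was called. Pgf was also not called without NSCL61 array 1 (limma adjusted p = 0.11) or array 2 (limma adjusted p = 0.14), and the list then held 2 rises in each case. Of the receptors of this list that were tested, Kdr, Flt1, Flt4, Csf1r and Flt3, none was called, and Flt1 came nearest with 0.46 (limma adjusted p = 0.065).

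Inside the cell, Stat5a, Stat3 and Pik3r1 rose while most of the relay did not pass. Of 32 tested genes of receptor signal relay, 6 rose, 1 fell and 25 did not pass (21.9% called, near the background), with a median of 0.08. Stat5a, a transcription factor that receptors phosphorylate, rose 2.06-fold from 5.73 and 5.56 to 6.46 and 6.92 (limma adjusted p = 0.0092). Stat3 rose 1.84-fold from 8.49 and 8.60 to 9.30 and 9.55 (limma adjusted p = 0.0044). Pik3r1, the regulatory subunit that docks on the receptor, rose 1.59-fold (limma adjusted p = 0.0094), and the adaptor gene Gab1 1.57-fold (limma adjusted p = 0.046). The list held 2 rises without NSCL61 array 1 and 4 without NSCL61 array 2. With poly-A scaling none of Stat5a, Stat3, Pik3r1 and Gab1 was called. Stat5a lost its call without NSCL61 array 2 (limma adjusted p = 0.061), Pik3r1 without NSCL61 array 1 (limma adjusted p = 0.080) and Gab1 without NSCL61 array 1 (limma adjusted p = 0.21) or NSCL61-sox11 array 2 (limma adjusted p = 0.11). Of 16 genes that restrain or turn over the receptors, 1 rose, 3 fell and 12 did not pass, with a median of -0.02. The share called was 25%, beside 19.2% of all genes. Slc9a3r1, a scaffold that binds PDGF receptors, fell from 11.48 and 11.44 to 10.62 and 10.82, or 1.67-fold (limma adjusted p = 0.0031). The caveolin gene Cav1 fell 1.29-fold and the phosphatase gene Acp1 1.17-fold, and the phosphatase gene Ptpn1 rose 1.27-fold. Each of these 3 lost its call without NSCL61 array 1 (limma adjusted p = 0.17, 0.27 and 0.15) or NSCL61 array 2 (limma adjusted p = 0.13, 0.28 and 0.25), and Acp1 and Ptpn1 also without NSCL61-sox11 array 2 (limma adjusted p = 0.064 and 0.076).

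Of 31 tested genes that PDGF is known to induce in fibroblasts, 5 rose, 3 fell and 23 did not pass, with a median of 0.09. The share called was 25.8%, beside 19.2% of all genes. Ccn2, which encodes connective tissue growth factor, rose 4.48-fold from 7.02 and 6.58 to 9.04 and 8.89 (limma adjusted p = 0.00055). Has2, hyaluronan synthase, rose 1.66-fold (limma adjusted p = 0.0050), Junb 1.77-fold (limma adjusted p = 0.035) and the chemokine gene Ccl2 1.58-fold (limma adjusted p = 0.045). Odc1, ornithine decarboxylase, fell by 0.58 and Tiparp by 0.38 on the log2 scale. Early transcription factor genes differed in both directions. Egr2 read 5.93 and 7.02 against 7.53 and 8.57, a difference of 1.58 just short of the threshold (limma adjusted p = 0.054). Egr1 and Egr3 differed by 0.82 and 0.76, and Fos, Fosb and Myc by -0.48, -0.81 and -0.37, and none of these passed (limma adjusted p between 0.14 for Myc and 0.77 for Fos). Fosl1 fell by 0.53 (limma adjusted p = 0.0497). The list held 3 rises and 1 fall without NSCL61 array 1, 4 and 1 without NSCL61 array 2, and 11 and 5 without NSCL61-sox11 array 1. With poly-A scaling Ccn2 kept its call, while Has2, Junb and Ccl2 lost theirs. Junb lost its call without NSCL61 array 1 (limma adjusted p = 0.18) or array 2 (limma adjusted p = 0.12). Ccl2 lost it without NSCL61 array 1 (limma adjusted p = 0.13), NSCL61-sox11 array 1 (limma adjusted p = 0.062) or NSCL61-sox11 array 2 (limma adjusted p = 0.053). Over the 5 pathway lists together, 19 of 101 tested genes rose and 8 fell (26.7% called, beside 19.2% of all genes). The counts were 9 and 3 without NSCL61 array 1, 11 and 3 without NSCL61 array 2, and 3 and 11 with poly-A scaling.

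Pdgfra is used as an oligodendrocyte progenitor marker and Pdgfrb as a pericyte marker, so the other markers of these cells are given beside them. Of 9 oligodendrocyte progenitor markers tested, limma called 0 upwards and 1 downwards (11.1% called, beside 19.2% of all genes). An unadjusted p under 0.05 was reached by 2. The one that fell was the proteoglycan gene Vcan, 2.27-fold. The defining genes Olig1, Olig2, Nkx2-2 and Gpr17 lay below the level filter, with means of 2.68 to 3.97 in NSCL61 and 2.81 to 4.07 in NSCL61-sox11. The mean level of the 17 measured markers was 5.23 on both NSCL61 arrays and 5.09 and 5.14 in NSCL61-sox11. Of 13 tested pericyte and smooth muscle markers, 4 rose, 1 fell and 8 did not pass (38.5% called, beside 19.2% of all genes). Among the brightest 40% of probe sets the list held 1 rise and 0 falls, and it held no fall without NSCL61 array 1, NSCL61 array 2 or NSCL61-sox11 array 1. Rgs5 rose 3.85-fold from 4.97 and 5.44 to 6.99 and 7.31 (limma adjusted p = 0.0015), Acta2, smooth muscle actin, 3.32-fold and Mcam 2.26-fold. The transcription factor gene Foxf2 rose from a mean of 4.93 to 6.39, so it passed the level filter only through NSCL61-sox11. Anpep, which encodes aminopeptidase N, was the marker that fell, from 5.93 and 6.12 to 5.30 and 5.57 (limma adjusted p = 0.031). Mcam lost its call without NSCL61 array 2 (limma adjusted p = 0.056) and with poly-A scaling (limma adjusted p = 0.088). Abcc9, Notch3, Des, Tagln and Cspg4 did not pass, and Kcnj8, Myh11, Vtn, Higd1b and Tbx18 lay below the filter. The mean level of the 18 measured markers was 5.52 and 5.51 in NSCL61 and 5.87 and 5.92 in NSCL61-sox11.

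Fibroblasts and meningeal cells also express both receptor genes. Of their 12 tested markers, 7 were called upwards, 0 downwards and 5 not at all, with a median of 0.98 beside -0.02 for all genes, and 9 had an unadjusted p under 0.05 (58.3% called, beside 19.2% of all genes). Above that of all genes the list median lay by 1.00, but by only 0.31 without the level filter. With poly-A scaling 4 of the markers were called upwards. Col1a1 read 5.84 and 6.31 in NSCL61 and 8.51 and 9.61 in NSCL61-sox11, and Col6a1 8.87 and 9.71 against 10.95 and 11.54. Postn, periostin, spread most, at 5.69 and 6.50 against 8.27 and 10.59, and lost its call without NSCL61 array 1 or 2 (limma adjusted p = 0.12 and 0.068). Fn1, fibronectin, rose 2.79-fold (limma adjusted p = 0.00086) and the homeobox gene Prrx1 1.88-fold (limma adjusted p = 0.0078). The 5 that did not pass went both ways. Col3a1 and Dcn differed by 1.04 and 0.36 on the log2 scale, and Twist1, Col6a3 and Ptgds by -0.09, -0.12 and -0.34. Lum, Fap and Foxc2 lay below the filter in both lines. The mean level of the 18 measured markers was 6.62 and 6.99 in NSCL61 and 7.34 and 7.71 in NSCL61-sox11. Of the 12 tested, 11 were higher on NSCL61 array 2 than on array 1 and 8 were higher on NSCL61-sox11 array 2, the order seen for Pdgfrb. In NSCL61-sox11 other lists had this order too, with 10 of 12 neural stem cell and 7 of 9 oligodendrocyte progenitor markers. In NSCL61 it held for 6 and 5 of these. Among 13 pericyte and smooth muscle markers it held for 4 in NSCL61 and 6 in NSCL61-sox11. The share over all tested genes was not counted. The part of fibroblast and meningeal markers in the rise of Pdgfra and Pdgfrb was not tested. Of 7 endothelial and 2 microglial or blood markers limma called 0 (3 and 0 at an unadjusted p under 0.05). Endothelial markers were called downwards under other settings: 2 with quantile normalization, 3 with hybridisation control scaling, 2 with the replicate block, and 1 each with median centring, poly-A scaling and without NSCL61-sox11 array 2. The mean levels of these lists stayed between 5.24 and 5.41 and between 4.35 and 4.45 on the 4 arrays.

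The label of neural stem cells was checked against 14 markers, of which 12 were tested. Of these 1 rose, 4 fell and 7 did not pass (41.7% called, beside 19.2% of all genes). Nestin, encoded by Nes, stood at 9.39 in NSCL61 and 9.44 in NSCL61-sox11, and vimentin, encoded by Vim, at 14.38 and 14.17. The fall of Vim was small but called (limma adjusted p = 0.020). Sox2 fell 3.24-fold to 8.83 and Ccnd2 2.78-fold to 9.01, and Slc1a3, an astroglial glutamate transporter gene, rose 2.28-fold, a call lost with poly-A scaling (limma adjusted p = 0.088). Fabp7 and Prom1 lay below the level filter in both lines. Without NSCL61 array 1 or array 2 the list held 2 falls, and with poly-A scaling 2 falls and 0 rises.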

How the data were processed

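Biotin-labelled RNA of 2 samples per line was put on Affymetrix M430_2 arrays, per the labels. The authors deposited processed log2 values, 1 per probe set and array; the log2 base is inferred from their range (2.13 to 14.62), and the sources used here do not give the summarisation and normalization made before. Trimmed means of 6.21 to 6.22 show a common scale, so no further scaling was applied.

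Names came from the platform annotation: 34945 have 1 symbol, 932 several and 9160 none here, and 64 control probe sets were left out. NSCL61-sox11 was set against NSCL61 by limma 3.58.1 (R 4.3.3; lmFit, then eBayes with a trend; two-sided), using the brightest 60% of probe sets and adjusting over all 27022. Residual degrees of freedom were 2, or 6.36 moderated. SE are moderated. In simulated data, 200 of 27022 probe sets were changed, with noise drawn from the fitted variance prior. Of those changed 1.5-fold, 2-fold and 4-fold, 10.4%, 74.6% and 97% were recovered, with 6 false calls. In the real data 4678 probe sets were called, so these rates need not hold there. Of 218 list entries 204 matched a named probe set. Named genes were up to 4 called genes of a list with the largest change (2 brightest where none), the 3 nearest profiles and the 2 nearest tested neighbours on each side; not all are described, and a few other list members are named as examples. Odc1, Tiparp, the early genes, Furin, Plat, Flt1, Sos2, Prrx1, Anpep and the uncalled markers were chosen after their values were seen. The members and lists were chosen with earlier results of these data known. A comparison of proteins was not run here. Alternatives are in the closing section.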

Additional observations from a re-analysis of the deposited data

How the results depend on the processing

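Read by their representative probe set or the mean of their probe sets, Pdgfa, Pdgfra and Pdgfrb kept their direction and call under all 14 alternatives. These were 3 scalings to controls or medians, quantile normalization, 2 level filters and the mean of probe sets. The rest were no _x_at or _s_at probe sets, no intensity trend, a replicate block and 4 omissions of an array. The other Pdgfra probe sets, 1421916_at and 1438946_at, lost their calls with poly-A scaling. With poly-A scaling, Pdgfb became 0.82 (limma adjusted p = 0.070), Pdgfc -0.093 (limma adjusted p = 0.79) and Pdgfd 0.35; with the mean of its probe sets Pdgfd became 0.24. The alternatives for Pdgfd were chosen after seeing the data. Omitting 1 array gave 0.18 to 0.44 for Pdgfc, 0.62 to 0.89 for Pdgfd and 0.14 to 0.70 for the difference in change between the receptor genes, a value with no test. All genes called were 303 up with poly-A scaling, 702 up and 2336 down with hybridisation control scaling, and 533 to 1376 up and 307 to 1316 down with 1 array omitted. Probe sets called were 558 up with poly-A scaling, 1242 up and 4656 down with hybridisation control scaling, and 941 to 2510 up and 568 to 2437 down with 1 array omitted. Pathway genes called were 3 up with poly-A scaling, 23 down with hybridisation control scaling, 5 down without the intensity trend, and 9 to 26 up and 3 to 10 down with 1 array omitted. The microglial list had no tested gene among the brightest 40% of probe sets and has no median there. A lone array was taken to vary like the other line. Array numbers are shared between the lines, and the titles do not say whether arrays of the same number belong together. Across the 27022 tested probe sets, deviations from the line mean correlated at 0.415 between arrays of the same number. A pairing by number is thus possible but not labelled, and the main fit left it out. With the replicate block Pdgfc was called at 0.31 (limma adjusted p = 0.0042), no other PDGF gene changed its call, and the counts were 2389 genes up and 2441 down, 4519 probe sets up and 4708 down, and 37 pathway genes up and 23 down. The cause of these shifts was not tested. The number of arrays limits precision, as do levels near 5.15 for Pdgfb and below it for Pdgfd.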
